A study of Rattus norvegicus with 5 samples.

Results

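Actins are the proteins of the thin filament and of the cytoskeleton, and 4 genes of the family were followed here in cultured ventricular cells of newborn rats. They are Actc1, which encodes cardiac alpha-actin, Acta1, which encodes skeletal muscle alpha-actin, Acta2, which encodes smooth muscle alpha-actin, and Actb, which encodes the cytoplasmic beta-actin of most cells. The members were chosen by name, with the identifiers ENSRNOG00000008536, ENSRNOG00000017786, ENSRNOG00000058039 and ENSRNOG00000034254 in that order. All 4 were listed in each of the 5 tables, among 15074 genes that the tables have in common. Genes were tested where their mean over the 5 libraries reached 20 CPM (counts scaled to the same total in every sum). Each actin passed this in the cells called compartment 1 below. Acta1 did not pass it in compartment 2, where it was at 2.13 to 19.2 CPM in 4 libraries and at 40.6 CPM in the A83-01 library.

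All cultures were primary ventricular cells, both myocytes and non-myocytes, from wild type Sprague Dawley rats of postnatal day 2 (P2). They had received an adenovirus with GFP or one with the transcription factor TBX18. The 5 groups were GFP at day 3, TBX18 at day 3, GFP at day 14, TBX18 at day 14, and TBX18 with A83-01 (0.2 µM), a small-molecule inhibitor of TGF-beta receptor signalling. The title and description of the last culture give day 14, its treatment label gives 3 days, and how long the inhibitor was present is not settled. Each group was a single library made with a 3' single-cell kit, which means that no difference can be set against a spread between replicates and that no test between groups was made. All intervals are 95% intervals and cover counting error only, which leaves out the variation between cells and between cultures.

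The heart switches between actin genes as it develops. Smooth muscle and skeletal alpha-actin are made early alongside cardiac alpha-actin, which dominates the adult rodent ventricle, and Acta1 is known to return in the ventricle under growth stimuli. In fibroblasts, Acta2 is the classical product of the myofibroblast state, which TGF-beta promotes, on top of a cytoskeleton built with Actb. Muscle actin genes are known targets of serum response factor, which binds the CArG box.

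For this reason the 250 bases before the start of 3 of the genes are shown, from RefSeq on build GRCr8, 5′ to 3′ on the coding strand. Capitals mark the TATAAA sequence and CArG boxes, spelled as CC, then 6 inner bases, then GG. In the full box all inner bases are A or T, and in the relaxed form 1 of the inner 6 is C or G. Entries were found for 3 of the 4 genes, without Actb. The windows are chr3:121271828-121272077 for Actc1, chr19:68784195-68784444 for Acta1 and chr1:241172504-241172753 for Acta2, all on the minus strand.
Actc1: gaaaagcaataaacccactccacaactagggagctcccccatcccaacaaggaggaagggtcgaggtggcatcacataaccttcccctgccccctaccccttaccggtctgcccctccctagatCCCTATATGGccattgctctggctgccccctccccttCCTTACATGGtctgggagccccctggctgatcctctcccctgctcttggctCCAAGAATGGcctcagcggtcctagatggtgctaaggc
Acta1: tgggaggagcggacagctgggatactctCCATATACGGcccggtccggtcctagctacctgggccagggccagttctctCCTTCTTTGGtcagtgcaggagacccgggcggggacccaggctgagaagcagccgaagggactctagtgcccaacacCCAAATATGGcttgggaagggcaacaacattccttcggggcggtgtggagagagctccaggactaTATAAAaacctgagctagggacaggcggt
Acta2: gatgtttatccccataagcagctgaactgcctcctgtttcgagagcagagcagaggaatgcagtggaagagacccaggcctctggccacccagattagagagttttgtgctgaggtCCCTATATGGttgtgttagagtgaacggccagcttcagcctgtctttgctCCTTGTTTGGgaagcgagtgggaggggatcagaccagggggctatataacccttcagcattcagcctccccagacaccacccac
Acta1 alone of the 3 held a full CArG box, with its first base 94 and its last base 85 bases before the start. It also held 2 relaxed boxes, Actc1 held 3 and Acta2 held 2. Of 33469 rat promoter windows of this length, 1.5% held a full box and 6.84% a relaxed one on either strand. The TATAAA sequence stood in the Acta1 window 29 to 24 bases before the start, and 12.9% of all windows held it. The sequence CATTCC, the core of the element bound by TEAD factors, was found in Acta1 and, on the other strand, in Acta2, against 12.1% of all windows. AGGTGTGA, the half-site of T-box factors, was not among the letters of these 3 windows, and 0.959% of all windows held it. These matches are descriptions of letters and say nothing of binding in these cells.

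The tables name genes by Ensembl ID only and the gene table used here held 0 such IDs, so cell type markers could not be read. Cells were therefore split into 2 compartments by clustering without the actins and the virus genes, and compartment 1 is the one with more EGFP in the GFP library at day 3. The rule for these genes asks for myocytes and stromal cells, and neither name was given to a compartment. Compartment 1 held 60.7% of the kept cells with GFP and 53.3% with TBX18 at day 3. The share at day 14 was 33.2% with GFP, 16.0% with TBX18 and 34.2% with TBX18 and A83-01. The virus features matched the labels, with human TBX18 at 0 UMIs (unique molecular identifiers, 1 per captured RNA molecule) in both GFP libraries. Libraries held 104781554 to 202024200 UMIs and 6066 to 7901 kept cells. Between 7 and 20 cell barcodes were shared by any 2 libraries. The day 3 tables are counts and the day 14 tables are log values from which counts were recovered, with a narrower range of cells, so that time and table type cannot be told apart.

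A level here is a gene's UMIs summed over the cells of a compartment, as CPM of all UMIs of those cells. With a 3' kit 1 tag marks 1 molecule whatever the transcript's length, so that levels of different actins can be set side by side, although capture may differ between genes. The coding sequences of these genes are similar. How reads shared between them were treated is not given in the sources used here, and none of the 4 actin columns held fractional counts.

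The make-up of the actin transcripts separated the compartments in every library. Actc1 supplied 90.1% of the UMIs of the 4 actins in compartment 1 of the GFP library at day 3, 80.0% with TBX18 at day 3 (95% interval 79.9 to 80.1), 91.6% with GFP at day 14, 81.3% with TBX18 at day 14 and 73.5% with TBX18 and A83-01. It was thus the main actin of compartment 1 throughout, with its lowest share in the A83-01 library. In compartment 2 the main actin was Actb, with 80.7% and 76.2% at day 3 for GFP and TBX18, and 67.2% with GFP, 65.3% with TBX18 and 56.4% with A83-01 at day 14. Acta2 made up most of the rest there, with 16.9%, 20.1%, 25.2%, 30.2% and 36.5% in the same order of libraries. The order of the isoforms in compartment 2 was therefore Actb, Acta2, Actc1 and Acta1 in each library, while the distance between the first and the second narrowed from the GFP library at day 3 to the A83-01 library. Together the 4 actins were 0.578%, 1.54%, 1.04%, 1.12% and 1.69% of all UMIs in compartment 1, and 0.284%, 0.346%, 0.186%, 0.273% and 0.248% in compartment 2.

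**Figure D1:**
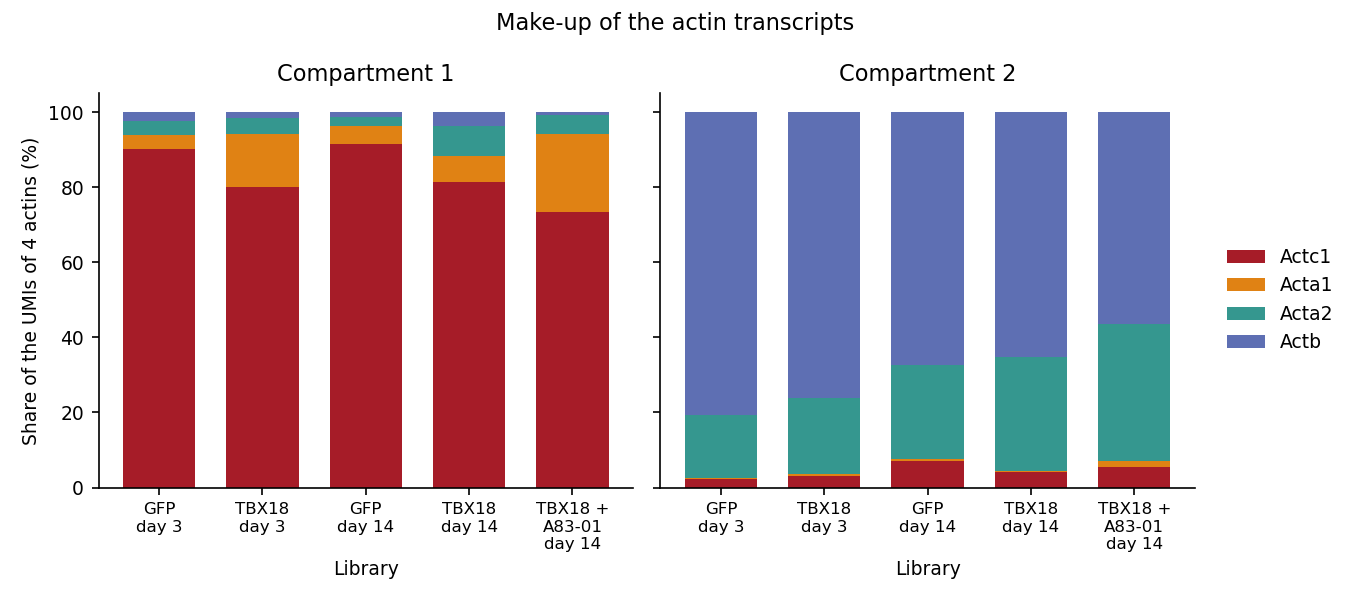
Stacked bars give the share (%) of Actc1, Acta1, Acta2 and Actb in the UMIs of the 4 actins, for each of the 5 libraries, in compartment 1 (left) and compartment 2 (right). Actc1 fills 73.5% to 91.6% of each bar on the left, and Actb fills 56.4% to 80.7% of each bar on the right.

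Actc1 stood 77.1-fold and 113-fold higher in compartment 1 than in compartment 2 at day 3, for GFP and TBX18. At day 14 the ratio was 71.2-fold with GFP, 81.4-fold with TBX18 and 91.3-fold with A83-01. Actb went the other way, and was 17.3-fold and 11.5-fold lower in compartment 1 at day 3, and 8.82-fold, 4.40-fold and 10.0-fold lower at day 14. Acta2 divided the compartments least. Its log2 ratio of compartment 1 over compartment 2 was -1.13 with GFP and -0.10 with TBX18 at day 3, and -1.03, 0.12 and -0.12 at day 14 with GFP, TBX18 and A83-01. A low ratio of Acta2 was thus found in both GFP libraries and a ratio near 0 in the 3 libraries with TBX18. The day 3 ratios of Acta2 and Actb depend on cluster 19 of compartment 1. With GFP it held 58.2% of the Acta2 UMIs and 83.3% of the Actb UMIs of the compartment. With TBX18 it held 21.3% and 58.8%. In cluster 2, the largest with GFP at day 3, Acta2 was 90.3 CPM and Actb was 20.8 CPM.

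**Figure D2:**
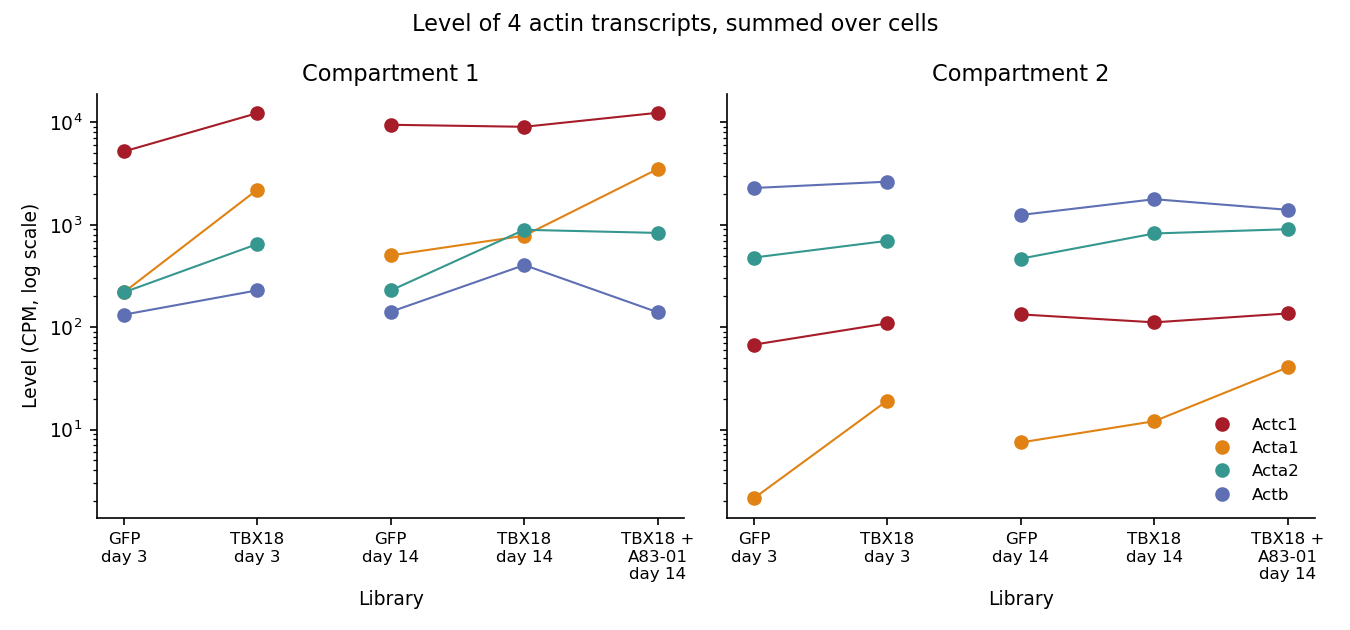
Points give the level (CPM, logarithmic axis) of each actin in each library, in compartment 1 (left) and compartment 2 (right), and lines join libraries of the same day. Acta1 in compartment 1 runs from 219 CPM with GFP at day 3 to 3513 CPM with TBX18 and A83-01.

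Actc1, the sarcomeric actin of the working myocardium, had a level in compartment 1 of 5205.5 CPM with GFP and 12336.9 CPM with TBX18 at day 3, then 9488 CPM with GFP, 9069 CPM with TBX18 and 12431 CPM with TBX18 and A83-01 at day 14. The GFP library at day 3 was the low one, and day 3 with TBX18 and day 14 with A83-01 were nearly level. TBX18 over GFP gave a ratio of 2.37-fold at day 3 (2.36 to 2.38), or 1.24 on the log2 scale. At day 14 the log2 ratio was -0.07 (-0.07 to -0.06), and -0.28 when libraries were scaled by the median of gene ratios. A83-01 with TBX18 stood 1.37-fold above TBX18 alone. Each of these ratios moved when the largest cluster of cells in 1 of the libraries was left out, to 0.39 on the log2 scale at day 3 (without cluster 6), 0.42 at day 14 (without cluster 9) and -0.28 for A83-01 (without cluster 7). Median levels per cell ran in the same order at day 3, with 4827 CPM for GFP and 13276 CPM for TBX18.

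Acta1, the skeletal isoform, spanned the widest range of the 4. Its level in compartment 1 was 219 CPM with GFP and 2207 CPM with TBX18 at day 3, and 503 CPM with GFP, 783 CPM with TBX18 and 3513 CPM with TBX18 and A83-01 at day 14. Day 3 with TBX18 and day 14 with A83-01 were therefore high and the other 3 low. TBX18 over GFP at day 3 was 10.1-fold (9.93 to 10.2), which ranked 6 from the top among 4520 genes. Leaving out cluster 2, the largest of the GFP library, brought it to 5.32-fold. The share of Acta1 in the 4 actins was 3.80% and 14.3% in those libraries.

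At day 14, TBX18 over GFP was 1.56-fold for Acta1 (1.52 to 1.59). Adding A83-01 gave 4.49-fold over TBX18 alone (4.42 to 4.56), which ranked 2 from the top among 4520 genes. Leaving out cluster 7, the largest of the A83-01 library, brought it to 2.71-fold. Acta1 then held 20.8% of the 4 actins, against 7.02% with TBX18 alone and 4.85% with GFP. From day 3 to day 14, Acta1 was 2.29-fold higher in the GFP cultures (1.21-fold without cluster 2) and 2.82-fold lower in the TBX18 cultures. These comparisons share libraries with each other, and time cannot be told apart from the kind of table. The median cell gave a different picture of Acta1. It had 80.6 CPM with GFP and 944 CPM with TBX18 at day 3, and 93.1 CPM with TBX18 at day 14. The GFP median at day 14 was nearly the same as that with TBX18, so the 1.56-fold ratio of sums was not seen there. The 95th percentiles at day 14 were 2307 CPM with GFP and 3299 CPM with TBX18. Over time the TBX18 median fell more than the sum did.

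Acta2, the smooth muscle isoform, had a level in compartment 1 of 219 CPM with GFP and 649 CPM with TBX18 at day 3, and 229 CPM with GFP, 894 CPM with TBX18 and 833 CPM with TBX18 and A83-01 at day 14. The 2 GFP libraries were low and nearly level, and the 3 TBX18 libraries were all higher. TBX18 over GFP was 2.97-fold at day 3 (2.92 to 3.01) and 3.91-fold at day 14 (3.81 to 4.02). Without the largest cluster of the GFP library these were 1.01-fold (without cluster 2) and 2.35-fold (without cluster 9). That step took most cells from the GFP side only. Within the largest cluster of each library, which is a different cluster in each, the ratios were 5.90-fold at day 3 and 7.27-fold at day 14. The ratio of A83-01 with TBX18 over TBX18 alone was -0.10 on the log2 scale, and 0.30 when scaled by the median of gene ratios, so that its direction depended on the scaling.

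Actb, the cytoplasmic isoform, had the lowest level of the 4 in compartment 1 of every library. It stood at 132 CPM with GFP and 229 CPM with TBX18 at day 3, and at 142 CPM with GFP, 404 CPM with TBX18 and 140 CPM with TBX18 and A83-01 at day 14. The TBX18 library at day 14 was the high one. TBX18 over GFP was 1.73-fold at day 3 and 2.86-fold at day 14 (2.76 to 2.96), and A83-01 with TBX18 was 2.89-fold lower than TBX18 alone. These 3 ratios depended on which cells were summed, with log2 values of -1.13 without cluster 2 for day 3, 0.47 without cluster 9 for day 14 and 0.54 without cluster 7 for A83-01. These clusters held 76.4%, 65.4% and 83.5% of compartment 1 in their library. Leaving one out thus took most cells from 1 side only. Within the largest cluster of each library, which is a different cluster in each, the ratios kept their direction. They were 2.46-fold and 7.53-fold higher with TBX18 and 8.01-fold lower with A83-01.

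Read against all genes, at day 3 in compartment 1, 3 of the 4 actins were at least 2-fold higher with TBX18 than with GFP, namely Actc1, Acta1 and Acta2, where 4.14% of the 4520 genes tested were, and 0 of 4 were at least 2-fold lower, against 3.69% of genes. At day 14, 2 of 4 were higher, Acta2 and Actb, against 2.94% of genes, and 0 were lower, against 0.907%. With A83-01, Acta1 was 1 of 4 at least 2-fold higher, against 0.509% of genes, and Actb was 1 of 4 at least 2-fold lower, against 9.87% of genes. From day 3 to day 14, Acta1 was the 1 actin at least 2-fold higher with GFP, against 11.6% of genes, and 0 were lower, against 6.48%. With TBX18, Acta1 was the 1 actin at least 2-fold lower over time, against 2.61% of genes, and 0 were higher, against 17.2%. A level at least 2-fold lower with A83-01 was thus common among genes. Actb itself, at -1.53 on the log2 scale, lay below their 5th percentile of -1.27. Differences of at least 2-fold upwards, as for Acta1, were rare for TBX18 at day 3 and for A83-01.

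**Figure D3:**
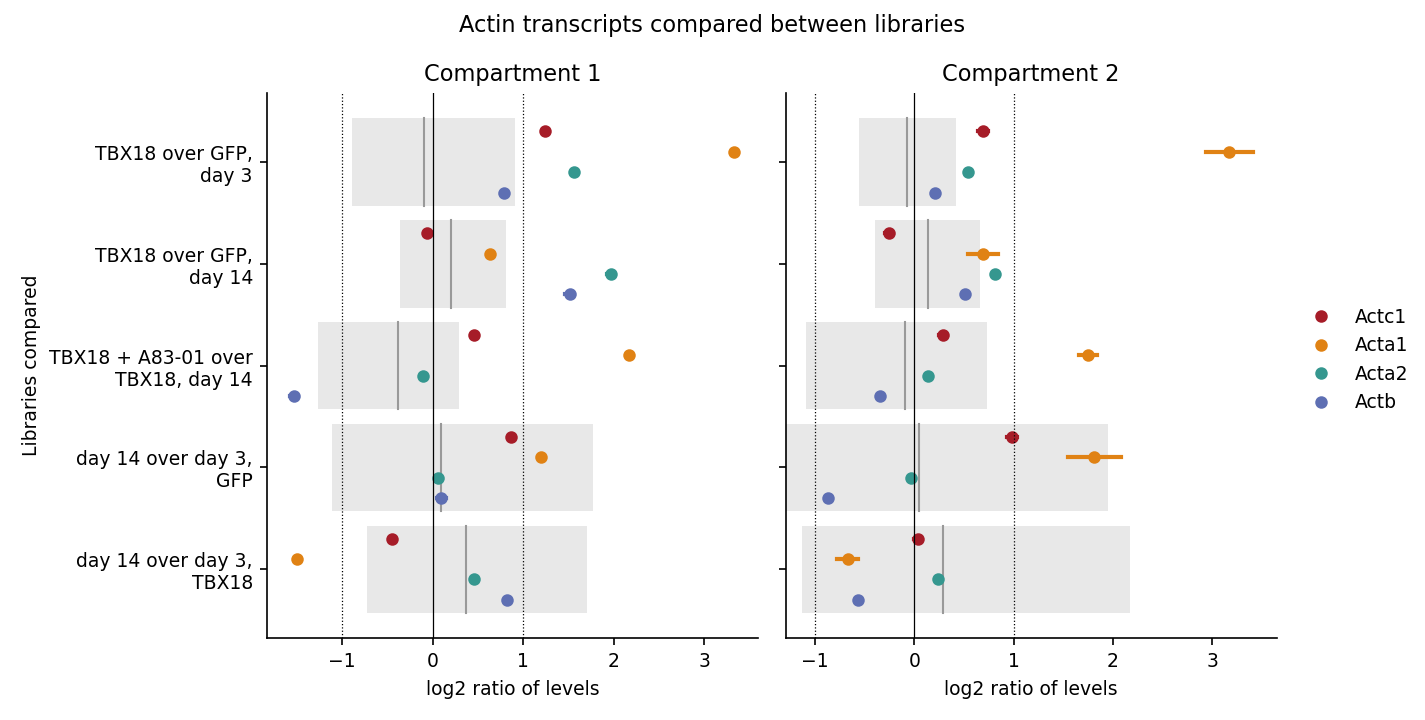
Points give the log2 ratio of levels for each actin and pair of libraries, in compartment 1 (left) and compartment 2 (right), with 95% counting intervals as lines, most of them narrower than the point. Grey bars span the 5th to the 95th percentile of all genes tested, with their median as a line, and dotted lines mark 2-fold. Acta1 lies farthest to the right for TBX18 over GFP at day 3 (3.33 on the left panel) and for A83-01 (2.17).

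In compartment 2, Actc1, Acta2 and Actb differed by less than 2-fold in each of the 5 comparisons, while Acta1, at its low level, passed 2-fold in 3 of them. Actb there was 2289 CPM with GFP and 2639 CPM with TBX18 at day 3, and 1248.5 CPM, 1779 CPM and 1402 CPM at day 14 with GFP, TBX18 and A83-01. Acta2 was 479 CPM and 698 CPM at day 3, and 468 CPM, 823 CPM and 906 CPM at day 14 in the same order. For both genes TBX18 stood above GFP at each time, by 1.15-fold and 1.43-fold for Actb and by 1.46-fold and 1.76-fold for Acta2. A83-01 with TBX18 against TBX18 alone gave a log2 ratio of -0.34 for Actb and 0.14 for Acta2, the product that TGF-beta is known to induce in fibroblasts. With single clusters left out, the log2 ratio of Acta2 ran from -0.95 (without cluster 3) to 1.41 (without cluster 4) for TBX18 over GFP at day 14, and from -0.49 (without cluster 15) to 1.42 (without cluster 1) for A83-01. That of Actb became -0.16 for TBX18 over GFP at day 14 without cluster 3, and 0.20 for A83-01 without cluster 1. At day 14, 0 of the 4 actins were at least 2-fold higher with TBX18 in compartment 2, against 2.29% of the 4987 genes tested.

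The libraries stood in the same order in both compartments for the proportion of Acta1 to Actc1, and the interval of compartment 2 held the value of compartment 1 in 2 of the 5 libraries. In compartment 1 there were 4.21 Acta1 UMIs per 100 Actc1 UMIs with GFP and 17.9 with TBX18 at day 3, and 5.30, 8.63 and 28.3 at day 14 with GFP, TBX18 and A83-01. In compartment 2 the same ratio was 3.16 (2.68 to 3.69) and 17.6 (16.7 to 18.6) at day 3, and 5.61 (5.11 to 6.15), 10.8 (10.2 to 11.5) and 29.8 (28.7 to 31.0) at day 14. The compartment 2 values for GFP at day 3 lay below those of compartment 1, and those for TBX18 and A83-01 at day 14 above. Barcodes with fewer than 500 genes, which belong to neither compartment, gave 17.6 (13.8 to 22.3) in the TBX18 library at day 3 and 7.49 (5.34 to 10.3) in the GFP library. The part of free RNA in the Actc1 and Acta1 counts of compartment 2 was not tested. Acta1 there had a ratio of 9.01-fold for TBX18 over GFP at day 3, which made it the 1 of 4 actins past 2-fold, against 1.18% of genes. Acta1 was also the 1 of 4 at least 2-fold higher with A83-01, against 2.51% of genes, and with GFP over time, against 18.3% of genes. With TBX18 over time 0 of 4 were, against 25.4% of genes. Acta1 itself did not reach the mean of 20 CPM behind these shares. With no minimum they were 0.896%, 3.19%, 17.7% and 25.7% of genes in the same order. In compartment 2 no actin was at least 2-fold lower in any of the 5 comparisons, where the shares of genes were 0.882% for TBX18 over GFP at day 3, 0.421% at day 14, 6.10% for A83-01, and 9.65% and 6.86% over time with GFP and TBX18. Cluster 10 of compartment 2 had a summed Acta1 level of 48.2 CPM beside Actc1 at 101 CPM in 307 cells of the TBX18 library at day 14. Its median cell had Acta1 at 0 CPM, and the 95th percentile was 72.3 CPM.

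The proportion of Acta2 to Actb differed between the compartments in every library. Compartment 2 held 20.9 and 26.4 Acta2 UMIs per 100 Actb UMIs at day 3 with GFP and TBX18, and 37.5, 46.3 and 64.6 at day 14. Compartment 1 held 165 and 283 at day 3, and 162, 221 and 596 at day 14. The ratio in compartment 1 was thus 7.90-fold and 10.7-fold that in compartment 2 at day 3, and 4.31-fold, 4.78-fold and 9.22-fold at day 14. Most Actb UMIs of compartment 1 came from small clusters in 4 of the libraries. Cluster 19 held 83.3% with GFP and 58.8% with TBX18 at day 3. At day 14 cluster 18 held 70.4% with GFP and cluster 20 held 70.1% with A83-01, so the proportions depend on these clusters. The part of free RNA in these counts was not tested.

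Cells were thinned to 5000 UMIs to compare detection at 1 depth, which left out 127 and 90 shallower cells of compartment 1 at day 3 and at most 2 per library at day 14. Acta1 was then detected in 39.8% of compartment 1 cells with GFP and 83.1% with TBX18 at day 3, and in 46.3%, 46.4% and 89.0% at day 14 with GFP, TBX18 and A83-01. Without thinning these shares were 70.1%, 92.8%, 63.3%, 60.0% and 96.1%. The thinned shares in compartment 2 were 0.709%, 6.50%, 3.90%, 4.64% and 15.2%, far below those of compartment 1 in each library. Median depths per cell were 22215.5 and 29340 UMIs in compartment 1 and 23941 and 27689 UMIs in compartment 2 at day 3.

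The actin with most UMIs in a cell was Actc1 in 96.1% and 78.1% of thinned compartment 1 cells at day 3 with GFP and TBX18, and in 98.7%, 90.3% and 95.1% at day 14. Acta1 led in 0.287% (0.153 to 0.491) of cells with GFP and 12.6% (11.5 to 13.8) with TBX18 at day 3, and in 0.298%, 1.35% and 3.06% at day 14. Cells led by Acta1 were thus most frequent at day 3 with TBX18, while the A83-01 library, whose summed Acta1 level was higher, held a smaller share of them. All 3 alpha-actins were found together in 10.7% and 53.3% of cells at day 3, and in 17.8%, 34.7% and 58.2% at day 14. In compartment 2, Actb led in 96.6%, 95.8%, 81.9%, 84.5% and 74.8% of cells and Acta2 in 1.45%, 2.46%, 8.05%, 9.92% and 15.0%, in the usual order of libraries.

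Across cells of 1 library, counts of Acta2 and Actb moved together in compartment 2, with a Spearman rho at day 3 of 0.45 (GFP) and 0.48 (TBX18), then 0.38, 0.50 and 0.53 at day 14 with GFP, TBX18 and A83-01. Actc1 and Actb ran opposite to each other in compartment 1, with -0.17 and -0.44 at day 3 (4523 and 3165 cells) and -0.26, -0.36 and -0.26 at day 14. Actc1 and Acta1, both muscle alpha-actins, gave 0.05 and 0.02 in compartment 1 at day 3 and 0.17, 0.16 and 0.27 at day 14. Such cells share a library and the counts are sparse, so these values are descriptions.

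In 1 cluster of compartment 1 the summed level of Acta1 stood above that of Actc1. Cluster 17 held 421 cells of the TBX18 library at day 3, 12.9% of its compartment 1, and 99.3% of the cluster came from that library, so that a property of this culture and one of TBX18 cannot be told apart. Acta1 there was 4659 CPM, or 79.1% of the 4 actins, and Actc1 was 493 CPM, or 8.37%. Acta1 exceeded Actc1 in 269 of the 421 cells, and in 485 of the 3255 cells of compartment 1 as a whole, against 9 of 4650 with GFP. The cluster had a transgene UMI in 86.9% of its cells and human TBX18 at 96.5 CPM, against 14.9 CPM in cluster 6, the largest of that library's compartment 1. In cluster 6 the levels were 14562 CPM for Actc1 and 2016 CPM for Acta1. The median cell of cluster 17 had Actc1 at 172 CPM and Acta1 at 737 CPM, against 15332.5 CPM and 1042 CPM in cluster 6. The typical cell of cluster 17 was thus marked by low Actc1, and its Acta1 was not above that of cluster 6. Leaving out cluster 17 gave a ratio of 8.58-fold for Acta1 with TBX18 over GFP at day 3, so the higher level was not carried by those cells alone. The 70 cells of cluster 22 in the same library, with a median of 4513 UMIs, also had nearly equal levels of Actc1 and Acta1, at 9041 CPM and 8517 CPM.

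**Figure D4:**
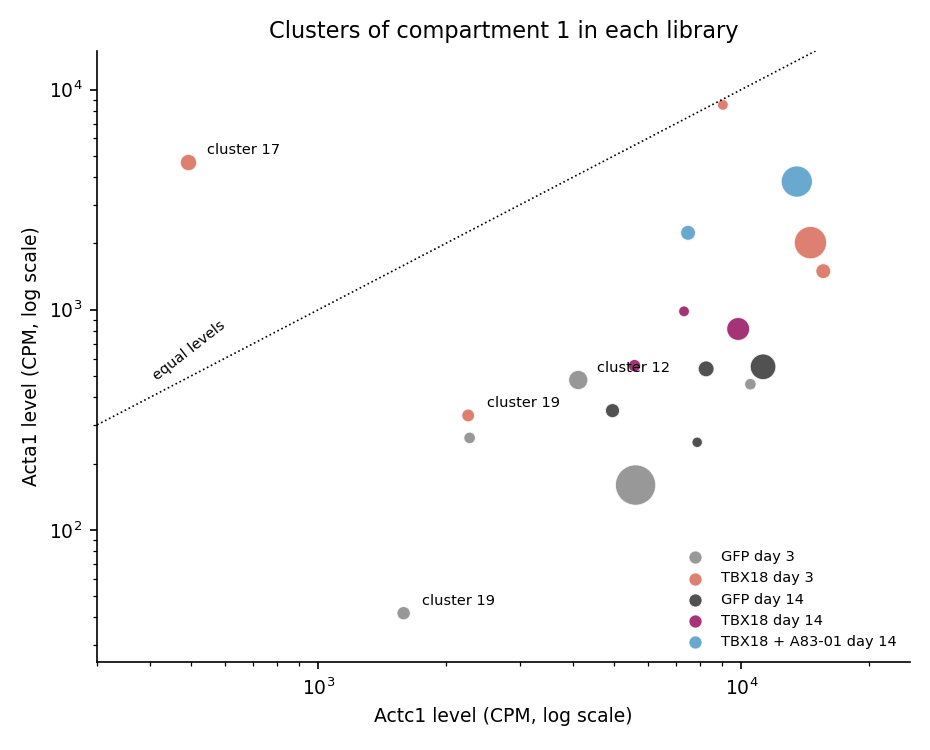
Each point is a cluster of compartment 1 in 1 library with at least 50 cells, at its Actc1 level (horizontal) and Acta1 level (vertical), both in CPM on logarithmic axes, and larger points hold more cells. The dotted line marks equal levels, and cluster 17 of the TBX18 library at day 3 (Actc1 493 CPM, Acta1 4659 CPM) is the point above it.

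Acta1 also varied inside the GFP libraries. At day 3 it ran from 41.8 CPM in cluster 19 to 479 CPM in cluster 12, whose 658 cells had Actc1 at 4115 CPM. The largest cluster of that compartment, cluster 2, had Acta1 at 160 CPM and Actc1 at 5621 CPM. At day 14 the clusters of the GFP library lay between 250 CPM and 550 CPM for Acta1.

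The largest cluster of compartment 1 differed between libraries. It was cluster 2 with GFP and cluster 6 with TBX18 at day 3, and cluster 9 with GFP, cluster 8 with TBX18 and cluster 7 with A83-01 at day 14, with 65.4% to 83.5% of the compartment.

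At day 3 most Actb UMIs of compartment 1 came from a single cluster. Cluster 19, with 213 cells with GFP and 180 with TBX18 at day 3, held 83.3% of the Actb UMIs and 58.2% of the Acta2 UMIs of compartment 1 in the GFP library, and 58.8% and 21.3% with TBX18. Its median cell with GFP had 85.3 CPM of Actc1 and 1730 CPM of Actb, values close to those of compartment 2, while its 95th percentile for Actc1 was 5429 CPM. Without this cluster TBX18 over GFP at day 3 was 5.59-fold for Acta2 and 4.28-fold for Actb, and within the largest cluster of each library 5.90-fold and 2.46-fold. The other 2 actins hardly moved without cluster 19, with 2.39-fold for Actc1 and 10.1-fold for Acta1.

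At day 14 the largest cluster of compartment 1 had Actb at 43.6 CPM with GFP, 328 CPM with TBX18 and 40.9 CPM with A83-01. Acta2 there was 129 CPM, 938 CPM and 634 CPM. Within these clusters TBX18 over GFP was 7.27-fold for Acta2 and 7.53-fold for Actb. A83-01 with TBX18 was 8.01-fold lower for Actb than TBX18 alone. These ratios compare different clusters. Inside cluster 8, Acta2 was 387 CPM in 381 cells with GFP and 938 CPM with TBX18, and Actb was 74.4 and 328 CPM. Inside cluster 18, Acta2 was 414 CPM with GFP and 756 CPM with TBX18, and Actb was 556 and 885 CPM. In the largest clusters the TBX18 library thus stood above the other 2 for both genes. Over the whole compartment it did so for Actb, while for Acta2 the direction against A83-01 depended on the scaling. The differences were larger between the largest clusters, which are not the same cluster in each library, than over the whole compartment. The Actb levels of the largest clusters were 3.49%, 18.4% and 2.92% of those in compartment 2, and the part of free RNA in them was not tested. Most Actb UMIs of compartment 1 lay outside the largest cluster in 2 of these libraries, with 70.4% in the 260 cells of cluster 18 with GFP and 70.1% in the 315 cells of cluster 20 with A83-01.

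Acta2 exceeded Actb in 2 of the clusters of compartment 2. In the A83-01 library, cluster 15 had Acta2 at 3883 CPM, or 59.1% of the 4 actins, in 446 cells, and 42.0% of the Acta2 UMIs of compartment 2. In cluster 5, Acta2 was 2349 CPM against 1975 CPM of Actb in 322 cells of the GFP library at day 14. In the 2733 cells of cluster 5 from the TBX18 library at day 14, Acta2 was lower than Actb, at 1318 CPM against 1941 CPM. That cluster was 7.95% of compartment 2 with GFP and 41.2% with TBX18, and it held 45.7% and 72.6% of the Acta2 UMIs there. Within the largest cluster of compartment 2 in each library, TBX18 over GFP at day 14 was 1.29-fold for Acta2, against 1.76-fold over the whole compartment. Cluster 14 at day 3 and cluster 21 at day 14 were nearly without Acta2, with 72.8 CPM and 13.5 CPM in the GFP libraries, and had Actb at 2422 CPM and 2715 CPM. Actb ran among clusters of compartment 2 from 2135 CPM to 2936 CPM with GFP and from 2469 CPM to 3704 CPM with TBX18 at day 3. At day 14 its range was wider, 2.43-fold with GFP (1117 to 2715 CPM), 2.40-fold with TBX18 (1292 to 3104 CPM) and 2.05-fold with A83-01 (1220 to 2496 CPM).

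Cells of compartment 1 were then ordered by the UMIs of their own virus, EGFP in GFP libraries and ZsGFP or human TBX18 in the others. In the TBX18 library at day 3, Actc1 was 14119 CPM in 1857 cells with 0 such UMIs, 13378 CPM with 1, 11088.5 CPM with 2 to 3 and 5337 CPM in 443 cells with 4 or more. Acta1 was 1926, 2009, 2339 and 3413 CPM in the same cells, and its share of the 4 actins was 11.3% at 0 and 35.9% at 4 or more. Cluster 17 supplied 2.96% of the cells at 0 and 57.6% of those at 4 or more. Within cluster 6 alone, cells with a transgene UMI against those without gave a log2 ratio of -0.21 for Actc1 and -0.08 for Acta1, so the rise of Acta1 with transgene UMIs was not seen there.

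In the GFP library at day 3, Actc1 was 5277, 5310, 5205 and 4973 CPM over the same classes, nearly level. Acta1 was 147, 192, 221 and 382 CPM. With cells matched on depth, 1600 with an EGFP UMI against 1600 without gave a ratio of 1.61-fold for Acta1, which ranked 2 from the top among 4162 genes, and a log2 ratio of 0.03 for Actc1. Within cluster 2 alone the log2 ratio for Acta1 was 0.62 (0.56 to 0.67), and that for Actc1 was -0.12. At day 14 the GFP library gave 1.38-fold for Acta1 with 794 matched cells on each side, and a log2 ratio of 0.51 within its largest cluster. Actc1 in that library was 9943 CPM at 0 EGFP UMIs and 8244 CPM at 4 or more, with a log2 ratio of -0.07 within the same cluster. With the same matching, the log2 ratio for Acta1 was 0.24 with TBX18 at day 3, -0.25 with TBX18 at day 14 and 0.14 with A83-01. A higher Acta1 level in cells with virus transcripts was thus present in the control virus libraries and not in every TBX18 library. Which property of those cells goes with it was not tested. For Acta2 and Actb at day 3 with GFP the matched log2 ratios were -1.31 and -2.73, but 0.16 and -0.11 within cluster 2.

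In the A83-01 library Actc1 was 12787 CPM at 0 transgene UMIs and 6205 CPM at 4 or more, and Acta1 was 3488 and 7364 CPM, with only 36 cells in the last class. In the TBX18 library at day 14, Actc1 was 9318 CPM and Acta1 was 787 CPM at 0 transgene UMIs. The last class there held 20 cells, with Actc1 at 4476 CPM and Acta1 at 422 CPM.

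**Figure D5:**
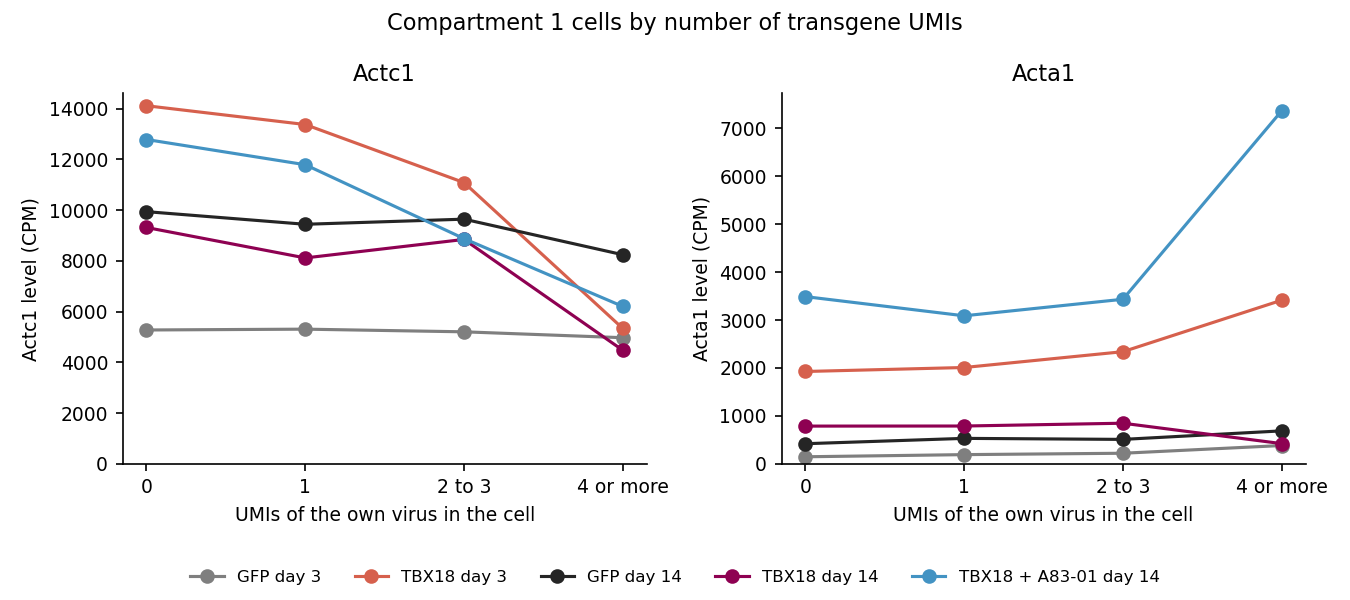
Lines give the level (CPM, linear axes from 0) of Actc1 (left) and Acta1 (right) in compartment 1 cells grouped by UMIs of their own virus, 1 line per library. Actc1 is lower at 4 or more UMIs than at 0 in the 3 TBX18 libraries (5337 against 14119 CPM at day 3). In the GFP libraries it is 4973 against 5277 CPM at day 3 and 8244 against 9943 CPM at day 14.

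Likeness to other genes was measured as Pearson's r of log2 levels over the 10 sums of 5 libraries and 2 compartments, for 4969 genes. Since the 2 compartments dominate these sums, r mostly follows the split between them. The highest r was 1.00 for Actc1 (0.9987, ENSRNOG00000014327), 0.97 for Acta1 (ENSRNOG00000008141), 0.93 for Acta2 (ENSRNOG00000008937) and 0.99 for Actb (ENSRNOG00000010461). The files do not pair these IDs with names. An r of at least 0.9 was reached by 524 genes for Actc1, 186 for Acta1, 690 for Actb and 1 for Acta2. Among the actins themselves, r was 0.95 between Actc1 and Acta1, -0.95 between Actc1 and Actb, 0.44 between Acta2 and Actb and 0.01 between Acta1 and Acta2.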

How the data were processed

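Single-cell RNA was measured in 5 libraries, 1 per group. Per the submitters' processing notes, STAR 2.7.8a, Partek and Rnor_6.0 were used. Judging from the values, the authors deposited the day 3 tables as estimated counts of UMIs and the day 14 tables as log2 values of CPM plus 1 per cell. UMIs were recovered from the latter by taking a cell's most common nonzero value as 1 UMI, which returned 100% of values exactly in 600 simulated cells. Between 99.7% and 99.8% of nonzero values were whole within 0.05.

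Barcodes with at least 500 genes were kept, and cells in the top 6% of Scrublet scores of their library were left out, since the automatic threshold marked 0% to 3.17%. This left 7659, 6102, 6066, 7901 and 7161 cells of GFP and TBX18 at day 3 and GFP, TBX18 and TBX18 with A83-01 at day 14. Cells were clustered with scanpy 1.11.5 and leidenalg 0.10.2 (2000 variable genes, 30 components, 20 neighbours, resolution 1) without actins and virus features. The 26 clusters were joined by average linkage into 2 compartments, 13 in each. Of the clusters, 11 drew at least 90% of their cells from 1 library, and these held 62.3% of all cells.

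UMIs were summed per compartment and library. Levels carry exact Poisson intervals, shares Clopper-Pearson intervals and ratios exact intervals given the total of both counts, with scipy 1.17.1, and they cover counting error only. Background shares used log2 ratios (pseudocount 0.5 CPM) of genes whose mean over the 5 libraries in the compartment reached 20 CPM. The ratio step was tested on simulated data. Promoters were searched in the 250 bases before the start. No column of unmapped samples was found.

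The 4 actins and the virus features were always named, and for each actin the gene of highest r was printed. The members and lists were chosen with earlier results of these data known. The design assumed named genes: marker lists, gene lists and a base without mitochondrial genes could not be used, and cells with fewer UMIs than 5000 were left out of thinned values.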

Additional observations from a re-analysis of the deposited data

Results flagged for a closer look

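Some ratios pointed in opposite directions under the same contrast in different cultures or compartments. With 1 library per group none of these differences was tested, and all values are log2 ratios.

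TBX18 over GFP for Actc1 was 1.24 at day 3 and -0.07 at day 14 in compartment 1, and 0.69 and -0.26 in compartment 2. Day 14 over day 3 for Actc1 in compartment 1 was 0.87 with GFP and -0.44 with TBX18. For Acta1, day 14 over day 3 was 1.20 with GFP and -1.50 with TBX18 in compartment 1, and 1.81 and -0.67 in compartment 2.

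For Acta2, A83-01 with TBX18 over TBX18 was -0.10 in compartment 1 and 0.14 in compartment 2. Day 14 over day 3 for Acta2 with GFP was 0.06 in compartment 1 and -0.03 in compartment 2, and in compartment 2 it was -0.03 with GFP and 0.24 with TBX18. For Actb, day 14 over day 3 was 0.10 in compartment 1 and -0.87 in compartment 2 with GFP, and 0.82 and -0.57 with TBX18. With single clusters left out, Actb in compartment 1 over time ran from -1.83 (without cluster 2) to 2.61 (without cluster 19) with GFP, and from -0.73 (without cluster 6) to 2.03 (without cluster 19) with TBX18. Acta2 over time with GFP ran from -1.49 to 1.25 in compartment 1 and from -0.78 to 1.74 in compartment 2. Actc1 over time with TBX18 in compartment 1 became 0.42 without cluster 6.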

How the results depend on the processing

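Of 440 alternative values of the ratios between libraries, 417 kept their side of 2-fold, 23 changed it and 7 changed direction. Acta1 with TBX18 over GFP at day 3 in compartment 1 stayed between 3.19 and 3.66 on the log2 scale, and Acta1 with A83-01 between 2.16 and 2.57, over the alternatives run other than leaving out clusters. The direction changed for Acta2 with median-of-ratios scaling (0.30 for A83-01 in compartment 1, -0.014 for GFP over time in compartment 1 and -0.037 for TBX18 over time in compartment 2), with the mean over cells (-0.15 for GFP over time in compartment 1), with the day 14 range of cells (0.16 for GFP over time in compartment 2) and within the largest clusters (-1.03 for TBX18 over time in compartment 2). It changed for Actb with GFP over time in compartment 1 with the mean over cells (-0.41). For Actc1 in cells with an EGFP UMI at day 3 it changed without matching on depth (-0.034). The cause was not tested. Median-of-ratios scaling added 0.08, -0.21, 0.40, -0.08 and -0.37 to every log2 ratio of compartment 1, for TBX18 at day 3, TBX18 at day 14, A83-01, GFP over time and TBX18 over time.

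Counts of actins past 2-fold moved as follows. At 1.5-fold, 2 were higher in compartment 2 for TBX18 over GFP at each day (3.19% and 6.76% of genes at day 3 and day 14), 2 were higher with GFP over time in each compartment (23.1% and 31.0%) and 1 lower in compartment 2 (24.2%), and with TBX18 over time 1 was higher in compartment 1 (36.6%) and 1 lower in compartment 2 (18.2%). For GFP over time in compartment 1, 2 were higher with no minimum on genes, with doublets kept, at resolution 0.5 and with each library clustered alone, and 3 within the largest clusters. For GFP over time in compartment 2, 2 were higher with the day 14 range of cells, with the mean over cells and within the largest clusters, which also gave 1 lower. For TBX18 over time in compartment 1, 1 was higher with no minimum on genes, with doublets kept, at resolution 0.5, with each library clustered alone and within the largest clusters, and in compartment 2 the largest clusters gave 1 lower. Clustering each library alone, the largest clusters and leaving out clusters were chosen after seeing the data. Leaving out each cluster in turn gave 520 further values, of which 40 moved by over 1.5 times, 27 changed their side of 2-fold and 26 changed direction. Some of the clusters left out had no cells in the libraries compared. Their values could not move, so the 520 overstate how stable the ratios were. Acta1 in compartment 1 then ran from 2.41 (without cluster 2, which held 76.4% of compartment 1 in the GFP library at day 3) to 3.74 (without cluster 12) for TBX18 over GFP at day 3, and from 1.44 (without cluster 7) to 2.42 (without cluster 8) for A83-01. Actb in compartment 1 ran from -1.13 to 2.34 for TBX18 over GFP at day 3, from 0.47 to 2.67 at day 14 and from -3.05 to 0.54 for A83-01.

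Not run, because the IDs carry no names: classing cells by marker lists, a base without mitochondrial genes, and Actg1 and Actg2 in the sum. No paired analysis was possible because each group has 1 library. Counting error was small beside most ratios. The intervals leave out the differences between cells and clusters, which moved some ratios past 2-fold or reversed them. They also leave out the unknown variation between cultures.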
